A study of Mus musculus with 60 samples.

Results

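The comparison of enriched with standard housing in the dorsal dentate gyrus rests on 9 RNA-Seq samples, 5 from mice in an enriched environment (EE) and 4 from mice in standard housing (SH). They are 9 of the 20 RNA-Seq samples and of all 60 samples of the series. The dentate gyrus (DG) is the entry station of the hippocampus. Its granule neurons receive cortical input, fire sparsely, and are joined throughout life by neurons born from stem cells at the border of the granule layer, and the dorsal pole is tied to spatial learning. Every sample was whole tissue punched from frozen brains of male C57BL6J mice 80 days old, pooled from several mice, and carried no transgene or drug. SH mice lived 3 to a cage and EE mice 12 to a larger cage with wheels, a bridge and weekly changes of toys, in both cases for 8 weeks from weaning on day 22. EE thus differed from SH in group size, space, exercise and objects at once, and these cannot be told apart.

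A further dorsal SH sample, replicate 3, took no part in the tests. The study excluded an SH sample because of the female transcript *Xist*, and *Xist* reached 34.4 CPM in this sample against 0 to 0.658 CPM in the other 9. Each of the 9 samples held 23522050 to 28301861 fragments assigned to genes. Fragments that mapped to several places made up 10.1 to 13.7% of the fragments in SH and 11.8 to 15.5% in EE (exact permutation test, two-sided p = 0.0794). Levels are given as CPM (counts scaled to the library total) after TMM scaling, in the order of replicates 1, 2, 4 and 5 for SH and 1 to 5 for EE. Each replicate is a separate pool. The tests came from a joint model of dorsal and ventral DG samples, so the spread they measure is that of both regions. Dorsal and ventral samples of a replicate number came from the same mice, and this model treated them as independent. Fold changes are log2 of EE over SH, with a standard error. Adjusted p values come from the quasi-likelihood test of edgeR (Benjamini-Hochberg, over all 17040 tested genes), and a gene was called raised or lowered below 0.05 with a fold change of at least 1.2.

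A small part of the transcriptome moved with housing. Of the 17040 tested genes, 108 were called (0.634%), with 66 raised (0.387%) and 42 lowered (0.246%). In bulk tissue, fewer cells of a type and less RNA per cell cannot be told apart. Among called genes the rises were larger than the falls, with a median log2 fold change of 0.54 among raised genes and -0.40 among lowered genes. Raised genes also had lower levels, with a median of 8.75 CPM in SH against 19.9 CPM for lowered genes. With fewer counts a larger change is needed to pass, so part of this contrast can follow from the calls. The log2 fold change was 1 or more in 12 raised genes and -1 or less in 1 lowered gene, *Gm16551*. The median over all tested genes was -0.00. In 64 of the 66 raised genes, with *Depp1* and 1110008P14Rik as the exceptions, every EE sample lay above every SH sample, and in all 42 lowered genes every EE sample lay below, where 2.21% and 1.78% of all tested genes were ordered in these ways. The calls themselves favour such an order. Dorsal SH replicate 3 was not used for the calls, and it lay below all EE samples in 64 of the 66 raised genes and above them in 39 of the 42 lowered genes. The exceptions, named after their values were seen, were the raised *Lefty2* and *Acta1* and the lowered *Npnt*, *Sema5b* and *Kcng3*. Over all tested genes it lay below every EE sample in 14.9% and above every one in 15.6%. The EE samples in this comparison are those that made the calls. The count of calls rested in part on single pools of either group, and leaving out any 1 dorsal sample gave 68 to 101 calls. Without dorsal SH replicate 1, 68 genes were called, 43 raised and 25 lowered. Without dorsal SH replicate 2, 42 genes were raised, and without dorsal SH replicate 5 or dorsal EE replicate 5, 26 were lowered. Without dorsal EE replicate 4, 74 genes were called. In all 9 fits that left out a sample, 45 genes were called.

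The genes that rose included a set switched on by neuronal firing. Calcium entry and cAMP signaling activate CREB and SRF at the promoters of immediate early genes, whose products, transcription factors of the Fos, Jun, Egr, Nr4a and Npas families, then act on genes for synaptic proteins, peptides and feedback inhibitors. The promoter stretches of *Fos*, *Fosb* and *Junb*, 3 of the 4 raised genes of the Fos and Jun families, show the kind of site through which CREB acts. That of *Fosl2*, also raised, is not shown. The 3 stretches shown run from 250 to 11 bases before the RefSeq start (GRCm38.p6). Capitals mark TGACG, the core of the cAMP response element (searched on both strands). The *Fos* stretch is chr12:85473640-85473879 on the plus strand, that of *Fosb* chr7:19310056-19310295 on the minus strand and that of *Junb* chr8:84978759-84978998 on the minus strand.
Fos: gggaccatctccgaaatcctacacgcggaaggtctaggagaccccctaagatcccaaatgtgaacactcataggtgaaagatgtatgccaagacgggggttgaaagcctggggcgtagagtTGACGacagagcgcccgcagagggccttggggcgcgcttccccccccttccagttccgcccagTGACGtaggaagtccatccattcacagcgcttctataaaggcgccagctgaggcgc
Fosb: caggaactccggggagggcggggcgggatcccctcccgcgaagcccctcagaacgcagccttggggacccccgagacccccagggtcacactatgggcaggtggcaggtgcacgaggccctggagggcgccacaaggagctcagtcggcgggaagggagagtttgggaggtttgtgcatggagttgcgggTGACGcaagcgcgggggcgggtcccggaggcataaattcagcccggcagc
Junb: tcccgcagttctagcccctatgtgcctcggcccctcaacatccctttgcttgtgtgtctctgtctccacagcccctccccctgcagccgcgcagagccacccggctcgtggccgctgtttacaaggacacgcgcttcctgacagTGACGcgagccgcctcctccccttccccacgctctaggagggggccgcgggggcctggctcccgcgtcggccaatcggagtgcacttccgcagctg
The core begins 129 and 66 bases before the start of *Fos*, 60 before that of *Fosb* and 106 before that of *Junb*. In windows of 250 bases before the start, TGACG was found for 18 of the 25 tested immediate early transcription factors with a window (72%) and for 29% of the 12072 tested genes with one. Among genes called here, 49 of the 66 raised and 33 of the 42 lowered genes had a window. TGACG was found for 12 of these 49 raised genes (24.5%) and 9 of these 33 lowered genes (27.3%). The shares of called genes were thus near that of all genes. The whole palindrome TGACGTCA, which holds the core on both strands, was found for 2 of the 49 raised and 1 of the 33 lowered genes, against 2.94% of all genes. The AP-1 site TGANTCA was found for 2 raised and 0 lowered genes, against 5.46%. These are matches of letters in a window and do not show binding.

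Of 31 tested immediate early transcription factors, 5 rose, none fell, and 26 did not pass the test. The list's median log2 fold change was 0.22, and 26 members had higher means in EE. Over all tested genes 0.634% were called and 48.6% had higher means in EE, and the counts in this and later lists stand beside these shares. Members of a list can vary together, so such counts are not of independent genes. *Npas4*, a neuron-specific factor induced by calcium, had 2.51, 2.47, 2.82 and 2.72 CPM in SH and 6.11, 7.04, 5.49, 6.24 and 6.82 CPM in EE. No SH sample came near the lowest EE sample, and the log2 fold change was 1.27 ± 0.12 (adjusted p = 1.82e-06). *Fos*, the classic marker of recently active neurons, had 7.06, 4.81, 7.94 and 7.86 CPM in SH and 11.6, 11.4, 9.96, 12.2 and 13.4 CPM in EE. The groups did not overlap, and dorsal SH replicate 2 was the lowest sample. The log2 fold change was 0.76 ± 0.12 (adjusted p = 0.00168).
*Fosb*, whose splice form accumulates with repeated activity, had 2.87, 2.88, 4.10 and 4.06 CPM in SH and 5.01, 4.81, 5.89, 6.36 and 5.56 CPM in EE. *Fosl2*, of the same family, had 41.7, 35.8, 43.0 and 39.5 CPM in SH and 49.8, 51.0, 54.1, 55.01 and 50.4 CPM in EE. *Junb*, a Jun partner of Fos proteins, had 37.6, 33.7, 33.8 and 35.8 CPM in SH and 40.4, 47.4, 40.2, 43.6 and 50.1 CPM in EE. In each of the 3 genes the lowest EE sample lay above the highest SH sample, with the smallest margin relative to its level in *Junb*. The differences were 0.67 ± 0.13, adjusted p = 0.00792 for *Fosb*, 0.38 ± 0.06, adjusted p = 0.00179 for *Fosl2* and 0.33 ± 0.07, adjusted p = 0.0305 for *Junb*. *Fosb* did not pass without dorsal SH replicate 1 (adjusted p = 0.0522). *Junb* did not pass in fits that left out any one library other than dorsal SH replicate 1 or dorsal EE replicates 1 or 3 (adjusted p = 0.0577 to 0.115).

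**Figure D1:**
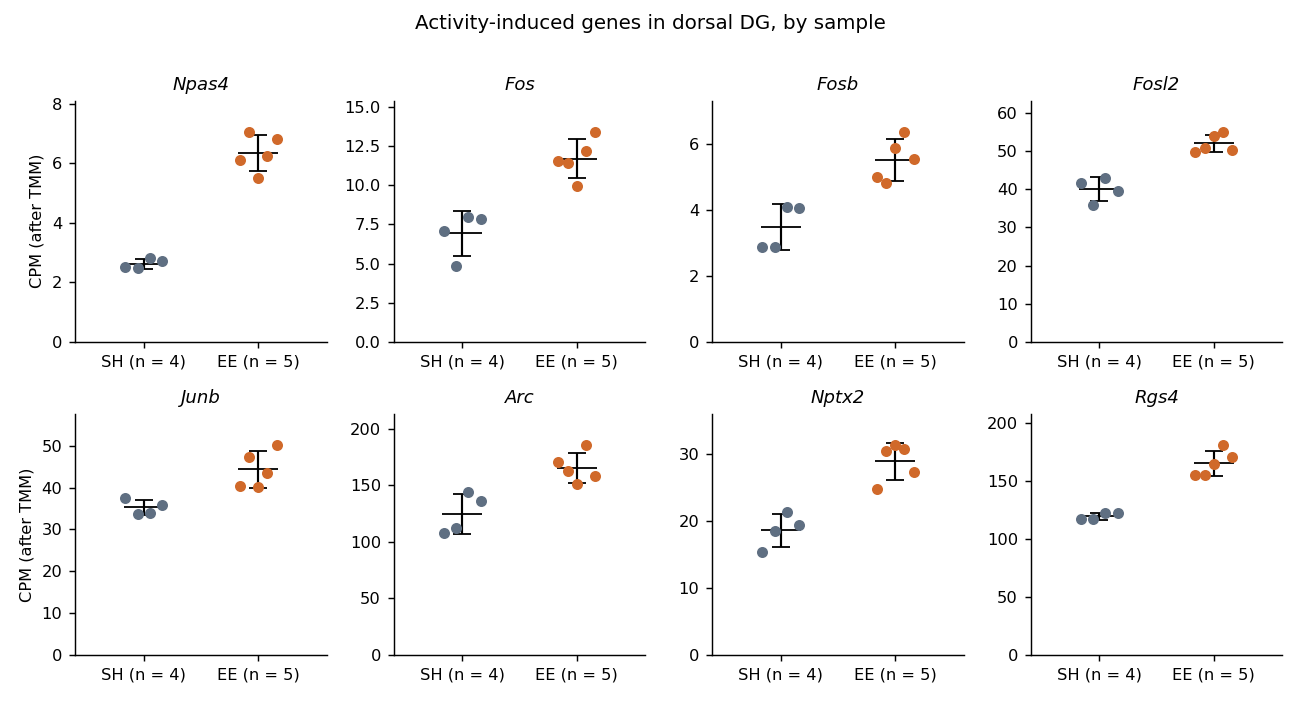
Levels of 8 activity-induced genes in CPM after TMM scaling (linear axes from 0), with 1 point per dorsal sample and lines at the mean ± SD for SH (n = 4) and EE (n = 5). The points of the groups do not overlap in any of the 8 genes, with the widest relative gap in *Npas4* (2.47 to 2.82 CPM in SH, 5.49 to 7.04 CPM in EE).

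The Egr and Nr4a families gave no calls. *Egr1*, a zinc finger factor linked to memory storage, had 19.3, 18.3, 22.8 and 25.5 CPM in SH and 22.9, 18.98, 29.1, 28.3 and 25.6 CPM in EE. *Nr4a1*, a nuclear receptor without a known ligand, had 12.5, 11.1, 16.8 and 18.7 CPM in SH and 17.4, 16.5, 17.0, 21.2 and 17.3 CPM in EE. Both ranges overlapped, and dorsal SH replicates 4 and 5 each lay above at least 1 EE sample. The log2 fold change was 0.22 ± 0.11, adjusted p = 0.589 for *Egr1* and 0.28 ± 0.12, adjusted p = 0.503 for *Nr4a1*. *Egr2* had 0.538, 0.576, 1.92 and 1.49 CPM in SH and 2.17, 2.11, 1.95, 2.24 and 2.45 CPM in EE, and its log2 fold change was 0.97 ± 0.28 (adjusted p = 0.142). *Egr4* had 0.34 ± 0.12, adjusted p = 0.275, *Csrnp1* had 0.34 ± 0.09, adjusted p = 0.0839, and *Nr4a3* had -0.15 ± 0.09, adjusted p = 0.684 as log2 fold change and adjusted p. *Npas2*, a partner of the clock protein BMAL1, missed the threshold with a log2 fold change of 0.36 ± 0.09 (adjusted p = 0.0527), although its 5 EE samples lay at 12.7 to 15.04 CPM and its SH samples at 10.0 to 11.7 CPM. Dorsal SH replicates 4 and 5 were the highest SH samples for *Egr2*, *Nr4a1* and *Egr1*, and *Egr2* passed without dorsal SH replicate 4 (adjusted p = 0.0342). *Egr2* passed in 3 of the 21 other fits (adjusted p = 0.0226 to 0.0457), *Npas2* in 8 of the 21 other fits (adjusted p = 0.00997 to 0.0497) and *Csrnp1* in 3 of the 21 other fits (adjusted p = 0.0232 to 0.0458).

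Proteins made at synapses after activity gave 3 rises and no falls among 26 tested effector genes, with a median log2 fold change of 0.16 and 23 members higher in EE. *Nptx2*, a secreted pentraxin that gathers AMPA receptors, had 15.4, 18.5, 21.3 and 19.4 CPM in SH and 24.8, 30.5, 31.3, 30.7 and 27.3 CPM in EE. *Arc*, which drives the removal of AMPA receptors and whose RNA moves to active synapses, had 107, 112, 144 and 136 CPM in SH and 170.5, 162, 151, 185 and 158 CPM in EE. *Sorcs3*, a sorting receptor of the postsynaptic density, had 22.5, 22.2, 24.7 and 25.9 CPM in SH and 28.9, 31.8, 36.02, 32.3 and 29.5 CPM in EE. The groups did not overlap in any of these, but for *Arc* dorsal SH replicate 4 came within 7.26 CPM of dorsal EE replicate 3. The differences were 0.63 ± 0.09, adjusted p = 0.000643 for *Nptx2*, 0.41 ± 0.09, adjusted p = 0.0388 for *Arc* and 0.41 ± 0.09, adjusted p = 0.0193 for *Sorcs3*. *Bdnf*, the neurotrophin most tied to enrichment, had 72.1, 63.1, 73.3 and 73.7 CPM in SH and 75.5, 64.3, 78.0, 95.6 and 83.2 CPM in EE. The SH and EE samples of *Bdnf* overlapped, and the log2 fold change was 0.17 ± 0.10 (adjusted p = 0.658). The growth factor *Vgf* had 0.26 ± 0.11, adjusted p = 0.465 and the cell cycle inhibitor *Cdkn1a* 0.46 ± 0.13, adjusted p = 0.152, and neither passed. *Arc* did not pass in fits that left out any one library other than dorsal SH replicate 4 or dorsal EE replicate 3, with RSEM expected counts or with robust dispersion (adjusted p = 0.0506 to 0.184). *Sorcs3* did not pass without dorsal SH replicates 1 or 2 or dorsal EE replicates 3 or 4 (adjusted p = 0.0527 to 0.0916).

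Feedback regulators of signaling gave 4 rises and no falls among 36 tested genes, with a median log2 fold change of 0.13 and 26 members higher in EE. *Rgs4*, which shortens signaling of G proteins, had 117, 117, 122 and 122 CPM in SH and 155, 155, 165, 181 and 171 CPM in EE. *Arl4d*, a small GTPase, had 10.5, 9.71, 9.27 and 9.79 CPM in SH and 13.6, 17.1, 12.3, 13.9 and 15.3 CPM in EE. In *Rgs4* the SH samples lay within 5.61 CPM of each other and 32.4 CPM or more below the EE samples. *Sgk1*, a kinase induced by glucocorticoids and activity, had 75.0, 60.1, 65.9 and 65.2 CPM in SH and 87.6, 93.0, 82.2, 78.5 and 80.3 CPM in EE, and *Sik1*, a kinase that holds back CREB coactivators, had 10.6, 9.79, 9.14 and 10.4 CPM in SH and 12.9, 12.8, 11.5, 12.5 and 12.6 CPM in EE. Neither overlapped between groups. The differences were 0.47 ± 0.06, adjusted p = 0.000202 for *Rgs4*, 0.56 ± 0.10, adjusted p = 0.00694 for *Arl4d*, 0.34 ± 0.06, adjusted p = 0.00926 for *Sgk1* and 0.31 ± 0.07, adjusted p = 0.0383 for *Sik1*. *Arl4d* and *Sgk1* were also the 2 calls among 29 tested genes of corticosteroid receptors and glucocorticoid response. In that list 22 members had higher means in EE, with a median log2 fold change of 0.13. Whether activity or glucocorticoids raised these genes was not tested. *Gadd45b*, a stress and activity gene linked to DNA demethylation, had 6.63, 8.14, 8.63 and 7.82 CPM in SH and 9.21, 12.4, 9.15, 9.87 and 10.3 CPM in EE. All EE samples of *Gadd45b* lay above all SH samples, but it missed the threshold with a log2 fold change of 0.39 ± 0.09 (adjusted p = 0.0521), and it passed in 8 of the 21 other fits (adjusted p = 0.00857 to 0.0462). The phosphatases *Dusp5* and *Dusp14*, which switch off MAP kinases, had 0.50 ± 0.14, adjusted p = 0.143 and 0.30 ± 0.08, adjusted p = 0.0679, and *Dusp5* passed in 2 of the 21 other fits (adjusted p = 0.0127 to 0.0204), one of them without dorsal SH replicate 4, and *Dusp14* in 6 of the 21 other fits (adjusted p = 0.0101 to 0.0272). *Sgk1* did not pass without dorsal SH replicate 2 (adjusted p = 0.0512). *Sik1* did not pass in fits that left out any one library other than dorsal EE replicate 3 or with RSEM expected counts (adjusted p = 0.0527 to 0.152).

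**Figure D2:**
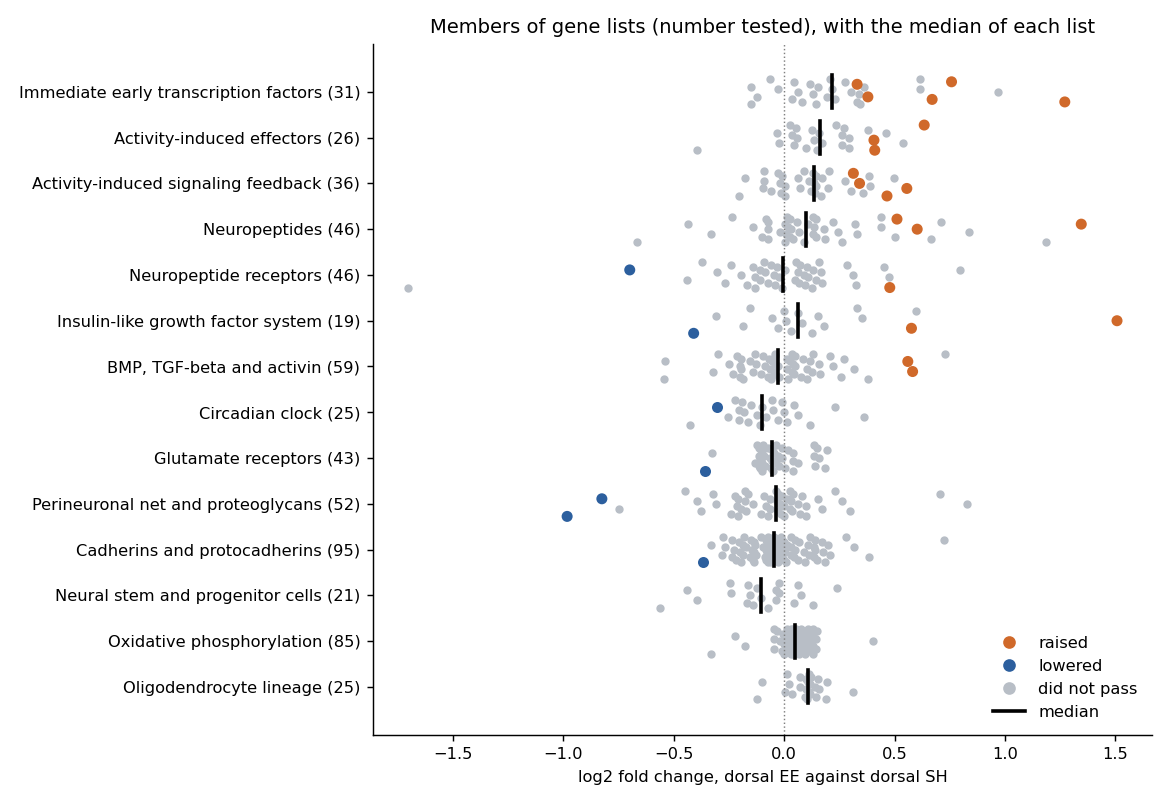
Log2 fold changes (horizontal axis, dorsal EE against dorsal SH) of every tested member of 14 gene lists, 1 point per gene, with the number tested in brackets and a bar at the median of each list. Orange points were raised, blue points lowered and gray points did not pass; all calls in the 3 activity lists are rises, and the oxidative phosphorylation and oligodendrocyte lists have most points slightly above 0 without a call.

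Peptides that neurons release beside their fast transmitters formed a further group. Of 46 tested neuropeptide genes 3 rose and none fell, with a median log2 fold change of 0.10. *Penk*, the precursor of the enkephalins, which act on delta and mu opioid receptors, had 12.5, 14.1, 17.0 and 16.8 CPM in SH and 31.8, 36.3, 43.0, 41.8 and 38.8 CPM in EE. The lowest EE value was 1.87 times the highest SH value. The log2 fold change was 1.35 ± 0.13 (adjusted p = 4.87e-06). *Npy*, an inhibitory peptide of hilar interneurons, had 28.3, 32.8, 30.4 and 31.2 CPM in SH and 39.7, 44.2, 49.5, 52.0 and 47.4 CPM in EE. Its samples did not overlap, and the log2 fold change was 0.60 ± 0.07 (adjusted p = 4.00e-05). *Nmb*, a peptide of the bombesin family, had 3.19, 3.33, 3.16 and 3.72 CPM in SH and 4.42, 5.05, 4.59, 5.22 and 4.65 CPM in EE, a log2 fold change of 0.51 ± 0.11 (adjusted p = 0.0208). The SH range of *Nmb* was narrow and lay below all EE samples. *Sst*, which marks many of the same interneurons as *Npy*, had 47.3, 52.4, 47.2 and 48.7 CPM in SH and 54.7, 50.0, 56.1, 54.1 and 55.2 CPM in EE and did not pass (0.14 ± 0.05, adjusted p = 0.305). The nociceptin precursor *Pnoc* had 0.32 ± 0.09, adjusted p = 0.126. *Tac2* had 1.19 ± 0.34, adjusted p = 0.147, with dorsal EE replicate 2 at 3.15 CPM and the other EE samples at 0.816 to 1.66 CPM. *Tac2* passed in 4 of the 21 other fits (adjusted p = 0.0221 to 0.0419). *Nmb* did not pass without dorsal SH replicates 1, 2 or 4 or dorsal EE replicates 2 or 4 or with RSEM expected counts (adjusted p = 0.0551 to 0.0911).

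Few receptors for peptides and amines were called. Of 46 tested neuropeptide receptors 1 rose and 1 fell. *Oprd1*, the delta opioid receptor, had 9.07, 7.36, 10.2 and 9.53 CPM in SH and 11.8, 12.2, 12.9, 12.4 and 13.5 CPM in EE, and its log2 fold change was 0.48 ± 0.08 (adjusted p = 0.00220). No EE sample was as low as the highest SH sample. *Npr1*, the receptor for natriuretic peptides that makes cGMP, had 7.82, 7.20, 7.05 and 7.60 CPM in SH and 5.05, 5.51, 4.80, 3.51 and 4.02 CPM in EE. It was lower in every EE sample, with a log2 fold change of -0.70 ± 0.11 (adjusted p = 0.00179). Of 42 tested genes in the list of receptors for dopamine, serotonin, noradrenaline and acetylcholine only *Drd1* was called. That list also holds receptors for histamine, adenosine and cannabinoids and the signaling gene *Ppp1r1b*. *Drd1*, the dopamine receptor that raises cAMP, had 11.6, 10.3, 11.1 and 9.90 CPM in SH and 16.4, 16.2, 18.3, 19.9 and 17.7 CPM in EE. The ranges were apart by 4.54 CPM, and the log2 fold change was 0.72 ± 0.10 (adjusted p = 0.000493). The orphan receptor *Gpr83*, in none of the lists and named after its values were seen, rose with a log2 fold change of 0.52 ± 0.09 (adjusted p = 0.00694).

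**Figure D3:**
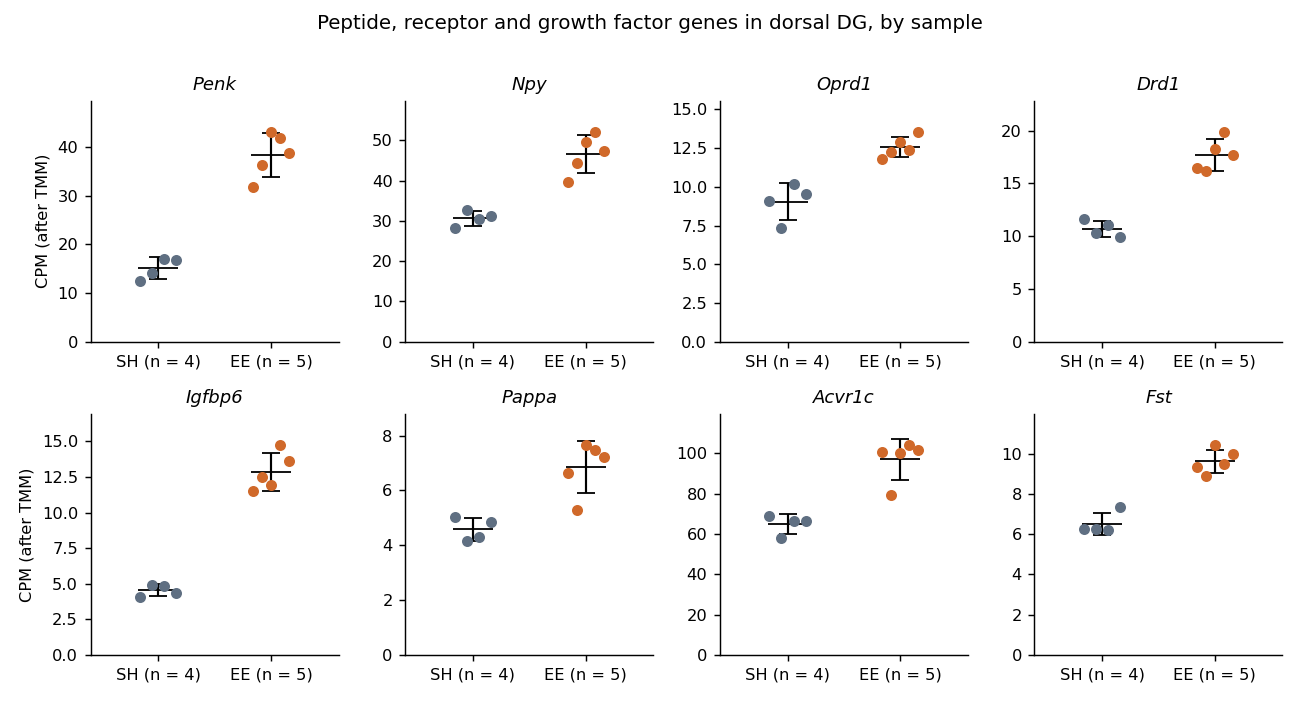
Levels of *Penk*, *Npy*, *Oprd1*, *Drd1*, *Igfbp6*, *Pappa*, *Acvr1c* and *Fst* in CPM after TMM scaling (linear axes from 0), 1 point per dorsal sample, with the mean ± SD for SH (n = 4) and EE (n = 5). EE samples lie above SH samples in every panel, and *Igfbp6* has the largest relative step (4.05 to 4.94 CPM in SH, 11.5 to 14.7 CPM in EE).

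The gene with the smallest p value of all belongs to the insulin-like growth factor (IGF) system. IGF1 and IGF2 act through a receptor kinase, binding proteins hold them in the tissue, and the proteases of the pappalysin family release them again. *Igfbp6*, a binding protein with a preference for IGF2, had 4.05, 4.94, 4.83 and 4.32 CPM in SH and 11.5, 12.5, 11.9, 14.7 and 13.6 CPM in EE. The lowest EE value was 2.34 times the highest SH value, and the log2 fold change was 1.51 ± 0.10 (adjusted p = 1.78e-08). *Igfbp5*, the most abundant of the changed binding proteins, went the other way, with 289, 276, 283 and 283 CPM in SH and 224, 223, 223, 199.8 and 194 CPM in EE. The EE samples lay 51.5 CPM or more below the SH samples (-0.41 ± 0.06, adjusted p = 0.000589). *Pappa*, a protease that cuts IGF binding proteins, had 5.02, 4.15, 4.31 and 4.84 CPM in SH and 6.63, 5.30, 7.64, 7.46 and 7.20 CPM in EE, and its log2 fold change was 0.58 ± 0.11 (adjusted p = 0.0128). Its relative *Pappa2* had 1.72, 1.32, 1.71 and 1.53 CPM in SH and 2.21, 2.44, 2.28, 2.53 and 2.41 CPM in EE. The EE samples of *Pappa2* lay above all SH samples, but the gene did not pass (0.59 ± 0.16, adjusted p = 0.0845), although it did in 2 of the 21 other fits (adjusted p = 0.00899 to 0.0426). In all, 16 of the 19 tested members did not pass. Of these, *Igfbp3* had 0.35 ± 0.10, adjusted p = 0.121, *Igfbp7* had 0.33 ± 0.09, adjusted p = 0.0829, and *Stc1*, an inhibitor of pappalysins, had -0.31 ± 0.11, adjusted p = 0.339. *Igfbp7* passed in 3 of the 21 other fits (adjusted p = 0.0247 to 0.0297) and *Igfbp3* with the likelihood ratio test (adjusted p = 0.0467). *Pappa* did not pass without dorsal SH replicates 2 or 4 (adjusted p = 0.0551 to 0.0602).

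The list of BMP, TGF-beta and activin genes gave 2 rises among 59 tested genes, both in the activin branch. *Acvr1c*, a receptor kinase for activin and nodal, had 69.0, 58.0, 66.3 and 66.3 CPM in SH and 100.5, 79.2, 100.3, 104 and 102 CPM in EE. *Fst*, the secreted protein that binds activin and keeps it from its receptors, had 6.27, 6.25, 6.19 and 7.33 CPM in SH and 9.36, 8.87, 10.4, 9.46 and 9.96 CPM in EE. The groups were apart in both genes, and in *Acvr1c* dorsal EE replicate 2 stood below the other EE samples. The differences were 0.58 ± 0.08, adjusted p = 0.000449 for *Acvr1c* and 0.56 ± 0.10, adjusted p = 0.00525 for *Fst*. *Lefty2*, of the TGF-beta superfamily but not in that list, also rose and is named after its values were seen. It did not pass in fits that left out any one library. Nor did it pass with DESeq2, limma-voom, RSEM expected counts, unstranded counts, a replicate block, all 20 samples, dorsal samples alone or no low-count filter (adjusted p = 0.0518 to 0.159 across these fits). In the Wnt list, 1 of 62 tested genes was called. This was *Ror1*, a receptor for Wnt5a, which fell, with 8.07, 9.34, 8.45 and 9.94 CPM in SH and 5.16, 6.21, 7.40, 6.36 and 6.12 CPM in EE (-0.52 ± 0.12, adjusted p = 0.0407). *Frzb*, which binds and blocks Wnt ligands, is not in that list and is named after its values were seen, with 24.3, 22.8, 23.7 and 23.5 CPM in SH and 17.8, 16.7, 17.2, 18.2 and 19.3 CPM in EE (-0.40 ± 0.06, adjusted p = 0.00179). *Rara*, a retinoic acid receptor, was the 1 call among 21 tested retinoic acid genes (0.34 ± 0.08, adjusted p = 0.0305). *Ror1* did not pass in fits that left out any one library other than dorsal EE replicate 3 or with RSEM expected counts (adjusted p = 0.0544 to 0.179). *Rara* did not pass in fits that left out any one library other than dorsal SH replicate 5 or dorsal EE replicate 2, with RSEM expected counts, with all 20 samples or without a filter on low counts (adjusted p = 0.0527 to 0.118).

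Lowered genes included some of matrix proteins. Of 52 tested genes of perineuronal nets and proteoglycans 2 fell and none rose, and the median log2 fold change was -0.04. *Gpc3*, a glypican that carries heparan sulfate and binds growth factors at the cell surface, had 5.84, 6.75, 5.81 and 6.07 CPM in SH and 3.31, 2.86, 3.13, 3.06 and 3.08 CPM in EE. All EE samples were below all SH samples, by 2.49 CPM or more, with a log2 fold change of -0.98 ± 0.10 (adjusted p = 4.87e-06). *Ogn*, a small leucine-rich proteoglycan that binds collagen, had 17.4, 17.2, 17.3 and 17.9 CPM in SH and 8.73, 9.36, 11.4, 9.50 and 10.2 CPM in EE. The SH samples of *Ogn* were within 0.718 CPM of each other, and no EE sample exceeded 11.4 CPM. The log2 fold change was -0.83 ± 0.08 (adjusted p = 1.82e-06). *Ecm2*, a leucine-rich matrix protein whose gene lies near *Ogn*, had 8.89, 10.9, 10.1 and 9.27 CPM in SH and 6.37, 6.50, 7.81, 7.18 and 7.06 CPM in EE, a log2 fold change of -0.49 ± 0.09 (adjusted p = 0.00943). *Ecm2* spans chr13:49504810-49532789 and *Ogn* chr13:49608046-49624501, both on the plus strand of mm10. Between them lies *Aspn*, of the same family, which did not pass (-0.31 ± 0.15, adjusted p = 0.600). No pair of called genes was adjacent among the tested genes.
*Col12a1*, a collagen that lies along the fibrils of others, was the 1 call among 41 collagens, with 7.82, 8.60, 7.47 and 8.12 CPM in SH and 4.94, 6.42, 6.02, 5.71 and 5.28 CPM in EE (-0.50 ± 0.10, adjusted p = 0.0115). *Matn2*, a matrix adaptor named after its values were seen, had 44.2, 48.9, 54.999 and 54.0 CPM in SH and 37.6, 36.7, 41.0, 39.8 and 37.3 CPM in EE (-0.39 ± 0.06, adjusted p = 0.00179). Both were lower in every EE sample. *Fat4*, a giant cadherin that sets the polarity of cells, was the 1 call among 95 cadherins and protocadherins, 65 of which had lower means in EE, and it had 155, 155, 151 and 155 CPM in SH and 109, 125, 134, 118 and 111 CPM in EE (-0.37 ± 0.07, adjusted p = 0.0103). *Lum* (-0.37 ± 0.09, adjusted p = 0.0583) and *Prelp* (-0.21 ± 0.09, adjusted p = 0.505), leucine-rich proteoglycans like *Ogn*, did not pass, although *Lum* did in 3 of the 21 other fits (adjusted p = 0.0192 to 0.0456). *Ogn* also marks fibroblasts of the meninges and vessels, and the summed level of the 17 tested markers of those cells, *Ogn* included, was 287.0 to 344 CPM in SH and 266 to 406 CPM in EE. The part of these cells in the falls was not tested. *Ecm2* did not pass without dorsal SH replicate 2 (adjusted p = 0.0512). *Col12a1* did not pass without dorsal SH replicate 2 (adjusted p = 0.0515).

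**Figure D4:**
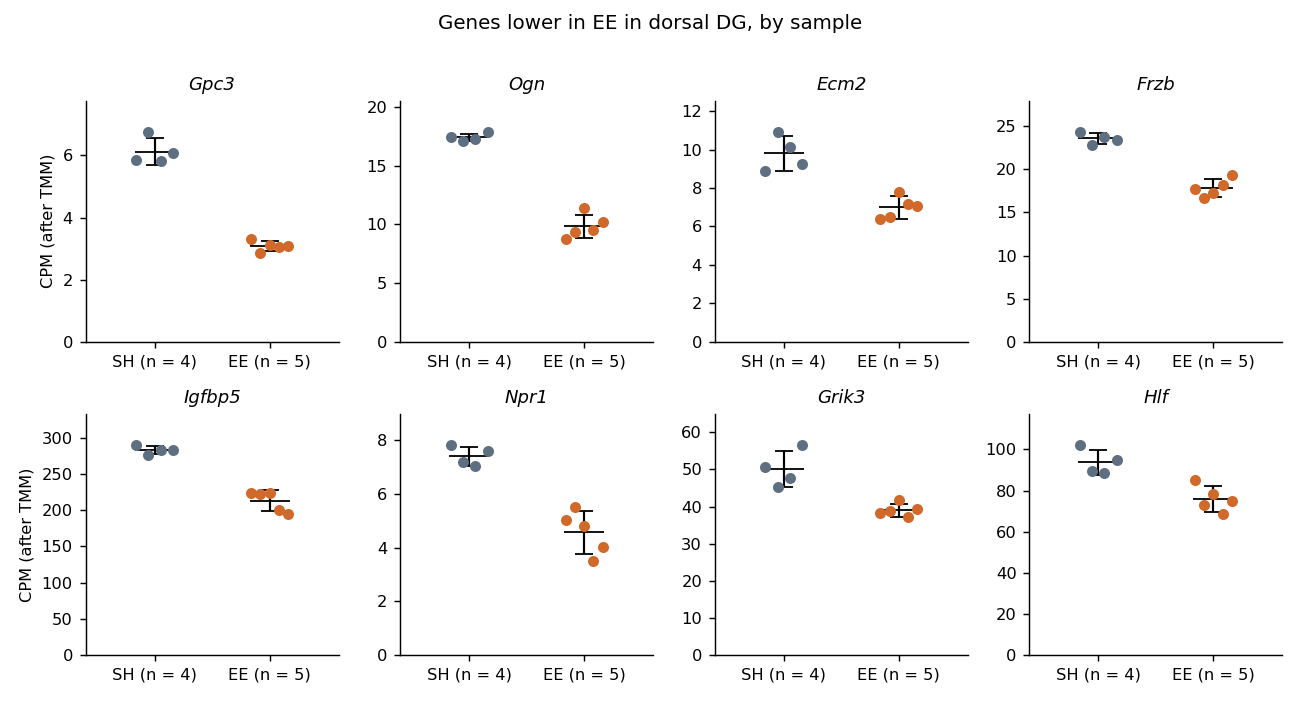
Levels of *Gpc3*, *Ogn*, *Ecm2*, *Frzb*, *Igfbp5*, *Npr1*, *Grik3* and *Hlf* in CPM after TMM scaling (linear axes from 0), 1 point per dorsal sample, with the mean ± SD for SH (n = 4) and EE (n = 5). EE samples lie below SH samples in each panel, and the steps are largest in *Gpc3* and *Ogn*.

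Lowered genes also included single receptors, channels and guidance cues of neurons, each the only call of its list. Over all tested genes 0.634% were called, and whether 1 call in such a list exceeds that share was not tested. These genes are therefore reported singly and not as a change of their lists. *Grik3*, a kainate receptor subunit, had 50.7, 45.3, 47.7 and 56.5 CPM in SH and 38.1, 38.9, 41.8, 37.1 and 39.2 CPM in EE (-0.36 ± 0.07, adjusted p = 0.0158). It was the 1 call among 43 glutamate receptor genes, of which 30 had lower means in EE. *Glra2*, a glycine receptor subunit, had 15.2, 17.5, 15.4 and 15.7 CPM in SH and 12.7, 12.5, 10.7, 12.8 and 12.2 CPM in EE (-0.39 ± 0.08, adjusted p = 0.0149), among 28 GABA and glycine genes. *Kcng3*, a silent potassium channel subunit, had -0.49 ± 0.11, adjusted p = 0.0363, among 83 potassium channel genes. *Sema5b*, a semaphorin that guides axons, had -0.30 ± 0.06, adjusted p = 0.0183, among 72 guidance genes. *Npnt*, a ligand of integrin and a marker of granule neurons, had 53.0, 49.0, 52.0 and 49.0 CPM in SH and 39.9, 38.9, 44.4, 41.6 and 40.1 CPM in EE (-0.31 ± 0.07, adjusted p = 0.0290). *Hlf*, a transcription factor driven by the clock, had 102, 89.5, 88.4 and 94.7 CPM in SH and 85.0, 72.8, 78.2, 68.3 and 75.1 CPM in EE (-0.30 ± 0.07, adjusted p = 0.0267), and 19 of 25 clock genes had lower means in EE. Clock genes can vary together, so this is not a count of independent genes. None of the other 24 clock genes passed, among them *Nr1d2* (-0.22 ± 0.06, adjusted p = 0.152), *Per2* (-0.20 ± 0.07, adjusted p = 0.283), *Per3* (-0.20 ± 0.06, adjusted p = 0.172) and *Tef* (-0.16 ± 0.05, adjusted p = 0.224). All brains were taken between late morning and noon, and the order of the groups within that time is not given in the sources used here. *Grik3* did not pass without dorsal SH replicates 1 or 5 or dorsal EE replicate 4 (adjusted p = 0.0563 to 0.103). *Glra2* did not pass without dorsal SH replicate 2 (adjusted p = 0.0728). *Kcng3* did not pass in fits that left out any one library other than dorsal SH replicate 5 or dorsal EE replicate 1, with all 20 samples or with limma-voom (adjusted p = 0.05002 to 0.161). *Sema5b* did not pass without dorsal SH replicates 4 or 5 or dorsal EE replicates 4 or 5 or with all 20 samples (adjusted p = 0.0511 to 0.0964). *Npnt* did not pass in fits that left out any one library other than dorsal EE replicate 3 (adjusted p = 0.0515 to 0.123). *Hlf* did not pass without dorsal SH replicates 1 or 5 or dorsal EE replicates 2, 4 or 5 (adjusted p = 0.0697 to 0.144).

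The remaining large changes were in genes of no list. The 12 largest rises, ranked where 3 or more dorsal samples exceeded 1 TPM, also held *Otos*, *Batf3*, *Mylk3*, *Klhl40*, *Serinc2*, *Olfm4* and *Slc38a5*. *Mylk3*, a kinase of cardiac myosin, had 9.75, 7.82, 7.94 and 8.38 CPM in SH and 13.7, 14.2, 13.7, 17.4 and 15.7 CPM in EE (0.81 ± 0.12, adjusted p = 0.000887). *Klhl40*, which stabilizes thin filaments in muscle, had 6.67, 7.36, 5.89 and 7.07 CPM in SH and 9.39, 13.01, 11.5, 13.6 and 11.5 CPM in EE (0.80 ± 0.11, adjusted p = 0.000274). Both are known from muscle, and in both the EE samples lay above all SH samples. *Slc38a5*, a glutamine transporter, had 5.95, 7.36, 6.28 and 8.005 CPM in SH and 9.32, 12.5, 10.0, 10.5 and 11.7 CPM in EE (0.65 ± 0.11, adjusted p = 0.00369). The others were *Otos* (1.00 ± 0.18, adjusted p = 0.00700), *Batf3* (0.92 ± 0.19, adjusted p = 0.0184), *Serinc2* (0.74 ± 0.15, adjusted p = 0.0199) and *Olfm4* (0.67 ± 0.11, adjusted p = 0.00210). *Necab3*, a calcium-binding protein, was among the 10 smallest p values with 23.99, 23.03, 22.6 and 22.8 CPM in SH and 32.2, 35.8, 32.4, 32.5 and 35.0 CPM in EE (0.54 ± 0.07, adjusted p = 0.000202). *Gpnmb*, a membrane glycoprotein named after its values were seen, had 10.2, 8.31, 8.97 and 9.98 CPM in SH and 13.1, 12.9, 15.7, 13.8 and 16.2 CPM in EE (0.61 ± 0.09, adjusted p = 0.000643). *Batf3* did not pass without dorsal SH replicates 1, 4 or 5 or dorsal EE replicate 5 (adjusted p = 0.0551 to 0.0845). *Serinc2* did not pass without dorsal SH replicates 1 or 4 or dorsal EE replicates 3 or 4 (adjusted p = 0.0553 to 0.0955).

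Of the 12 largest falls, *Atp2b4*, a pump that moves calcium out of the cell, had 54.9, 53.0, 50.3 and 53.5 CPM in SH and 38.3, 41.6, 36.5, 33.6 and 33.9 CPM in EE (-0.53 ± 0.08, adjusted p = 0.000643). *Lpar4*, a receptor of lysophosphatidic acid, had 9.39, 9.21, 11.3 and 11.2 CPM in SH and 8.03, 5.76, 7.32, 8.11 and 7.62 CPM in EE (-0.48 ± 0.09, adjusted p = 0.00900). In both every EE sample was lower than every SH sample. *Cdhr1*, a cadherin-related protein best known from photoreceptors, had -0.47 ± 0.08, adjusted p = 0.00179, and *Slc44a5*, of the choline transporter-like family, -0.42 ± 0.08, adjusted p = 0.0121. *Vwa3a* (-0.55 ± 0.10, adjusted p = 0.00453), *Tmem114* (-0.61 ± 0.12, adjusted p = 0.0114) and *Efcab1* (-0.42 ± 0.09, adjusted p = 0.0299) completed them. *Kitl* and *Hrk* are named after their values were seen. *Kitl*, the ligand of the Kit receptor, had 51.6, 47.1, 45.5 and 45.2 CPM in SH and 38.1, 37.2, 40.3, 37.8 and 38.7 CPM in EE (-0.30 ± 0.05, adjusted p = 0.00179), and *Hrk*, a BH3 protein that promotes cell death, had 109.6, 110.1, 110.0 and 112 CPM in SH and 90.3, 88.5, 92.7, 86.0 and 80.4 CPM in EE (-0.33 ± 0.06, adjusted p = 0.00698). The SH samples of *Hrk* were nearly equal and its EE samples lay 17.0 CPM or more lower. *Lpar4* did not pass without dorsal SH replicates 4 or 5 (adjusted p = 0.0533 to 0.0585). *Slc44a5* did not pass without dorsal SH replicates 4 or 5 (adjusted p = 0.0654 to 0.0747). *Efcab1* did not pass without dorsal SH replicates 2 or 4 or dorsal EE replicates 1, 3 or 5, in a fit of the dorsal samples alone or with limma-voom (adjusted p = 0.0560 to 0.135). Without dorsal SH replicate 1 the fall of *Kitl* was under 1.2-fold (adjusted p = 0.0138) and was not called.

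The largest fold changes of all were in genes of very few counts. *Pkp1* had 4, 3, 4 and 3 counts in SH and 15, 7, 16, 15 and 14 in EE (1.89 ± 0.36, adjusted p = 0.00834), and *Lrg1*, a glycoprotein of activated vessels, had 13, 11, 10 and 20 counts in SH and 43, 67, 32, 27 and 51 in EE (1.69 ± 0.28, adjusted p = 0.00321). In both, no EE sample was as low as any SH sample. In all, 10 raised genes and the lowered *Gm16551* had a mean under 1 CPM in SH, and the fold changes at such counts depend on the prior count of the fit.

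Genes of neurogenesis gave no calls in the fit reported. Of 21 tested stem and progenitor genes, 16 had lower means in EE, and the median log2 fold change was -0.11. *Sox2*, a transcription factor of neural stem cells, had 40.5, 41.1, 39.1 and 35.8 CPM in SH and 35.8, 30.2, 30.0, 34.6 and 34.2 CPM in EE (-0.25 ± 0.06, adjusted p = 0.0766). *Hes5*, a Notch target of stem cells, had 9.22, 10.3, 9.61 and 8.41 CPM in SH and 6.11, 7.66, 6.99, 7.30 and 7.59 CPM in EE (-0.39 ± 0.10, adjusted p = 0.0691). The ranges of *Sox2* met at 35.8 CPM and those of *Hes5* were apart, and neither gene passed the test, although *Hes5* did in 6 of the 21 other fits (adjusted p = 0.0167 to 0.0454). *Nes* had -0.24 ± 0.07, adjusted p = 0.191. The 27 tested genes of immature granule neurons had a median of 0.02, with *Dcx* at -0.10 ± 0.10, adjusted p = 0.849, *Neurod1* at -0.14 ± 0.10, adjusted p = 0.749 and *Calb2* at 0.24 ± 0.19, adjusted p = 0.788, and the 49 cell cycle genes had one of 0.01. These genes are named after their values were seen.

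Other lists gave no call in the fit reported. They include 28 genes of DNA methylation and demethylation (median -0.00), 77 histone modifying enzymes (-0.00), 61 of synaptic vesicle release (-0.02), 46 postsynaptic scaffolds (-0.01), 40 of the interferon response (0.00) and 39 imprinted genes (-0.00). The list of DNA methylation and demethylation holds *Gadd45b*, which passed in 8 of the 21 other fits. That of synaptic vesicle release had 1 raised member in some other fits, such as with unstranded counts. Oxidative phosphorylation genes had higher means in EE in 73 of 85 and cytosolic ribosomal proteins in 64 of 82, against 48.6% of all tested genes, but the medians were 0.05 and 0.04 and no member was called. Genes of one such machine vary together, so these counts are not of independent genes.

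Markers of the granule neuron were present in every sample, as were those of the other cell types tested. The summed level of 17 granule neuron markers, led by *Rfx3* and *Dock10*, was 2815 to 3017 CPM in SH and 2651 to 2917 CPM in EE, and that of 19 markers of CA pyramidal and mossy cells was 2105 to 2269 CPM in SH and 2109 to 2269 CPM in EE. Sums for 12 cell types were compared between the groups by exact permutation tests over samples (two-sided), and the smallest p was 0.0794 (0.508 adjusted over the 12). This was for blood, led by *Hbb-bs* and *Hba-a1*, at 101 to 148 CPM in SH and 121 to 186 CPM in EE. Oligodendrocyte lineage genes, led by *Mbp*, had higher means in EE in 23 of 25, with sums of 2732 to 3388 CPM in SH and 3006 to 3789 CPM in EE. The choroid plexus markers, led by *Ttr* and *Kl*, summed to 226 CPM in dorsal SH replicate 1 and to 29.0 to 75.6 CPM in the other 8 samples, and none was called. The sums of astrocytes (*Slc1a2*), microglia (*Csf1r*), vessels (*Rgs5*, *Flt1*), interneurons (*Gad1*, *Cnr1*), CA pyramidal and mossy cells (*Nptx1*, *Zbtb20*), ependyma (*Foxj1*, *Rarres2*), habenula and thalamus (*Prkcd*, *Rora*) and fibroblasts (*Ptgds*, *Igf2*) overlapped between the groups. *Npnt* among the granule neuron markers, *Npy* among those of interneurons and *Ogn* among those of fibroblasts were the only called markers of the 12 lists. The part of cell composition in the calls was not tested.

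The same pools gave ventral samples, and the effect of EE in them was compared with that in dorsal DG by the interaction of region and housing. In the fit without the pool as a block, only *Igfbp6* of the 17040 genes differed at an adjusted p under 0.05 (1 gene, 0.00587%). In dorsal DG its mean was 4.53 ± 0.418 CPM in SH and 12.9 ± 1.31 CPM in EE (mean ± SD, n = 4 and 5), and in ventral DG 5.99 ± 0.623 CPM and 8.97 ± 1.19 CPM. The rise was larger in dorsal DG by a log2 difference of 0.92 ± 0.15, adjusted p = 0.0462. With the pool as a block, *Igfbp6* (adjusted p = 0.00478) and *Acvr1c* (adjusted p = 0.00478) differed, and without the block the difference for *Acvr1c* was a log2 difference of 0.45 ± 0.11, adjusted p = 1.000. *Gpc3* (a log2 difference of -0.57 ± 0.14, adjusted p = 1.000) and *Klhl40* (a log2 difference of 0.56 ± 0.15, adjusted p = 1.000) had larger changes in dorsal DG, and *Fos* (a log2 difference of -0.50 ± 0.18, adjusted p = 1.000) and *Drd1* (a log2 difference of -0.51 ± 0.18, adjusted p = 1.000) smaller ones, and none of these differences passed.
Most genes called in dorsal DG had ventral means on the same side. Of the 66 raised genes 64 had higher means in ventral EE, and of the 42 lowered genes 40 had lower ones, where 49.9% of all tested genes were higher. The exceptions were *Tmprss6*, *Nrip2*, *Abca6* and *Lpar6*. The ventral medians were 0.31 for raised and -0.20 for lowered genes, and as the calls were made on dorsal values, the larger dorsal medians follow in part from that choice. In ventral DG 41 genes were called (0.241%), and 24 of the 108 dorsal genes were among them, 21 raised and 3 lowered (*Ogn*, *Col12a1* and *Matn2*). The dorsal and ventral samples of a replicate number came from the same mice and are not independent pools.

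**Figure D5:**
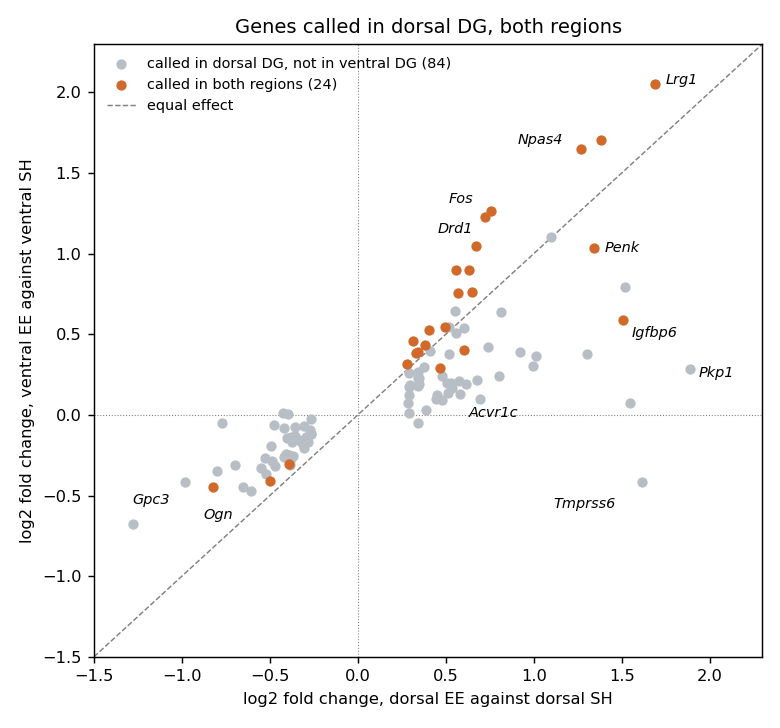
Log2 fold changes of EE against SH in dorsal DG (horizontal axis) and ventral DG (vertical axis) for the 108 genes called in dorsal DG, 1 point per gene, with the line of equal effect. Orange points (24 genes) were also called in ventral DG, and most points lie on the same side of 0 in both regions. *Igfbp6*, below the line, is the one gene whose difference passed the test without the pool as a block. With that block *Acvr1c* passed as well.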

How the data were processed

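Tissue of dorsal and ventral DG was profiled by RNA-Seq of total RNA in 4 groups of 5 pools. Per the labels and the paper's methods, the authors trimmed reads with Trim Galore 0.4.0, aligned them to mm10 with STAR 2.5.1b, and deposited a count of fragments for each of 46480 genes, not normalized, in unstranded and stranded columns. The expected count (estimated count) of each gene, in which RSEM 1.2.30 shares out fragments that match several genes, formed part of another table deposited by the authors. TPM, scaled for transcript length and library total, stood beside it as the authors deposited it, and FPKM was not used. Names and mm10 coordinates came from Gencode and were found for 45968 genes.
The column of counts that fits the reverse-stranded kit was taken. A gene was tested when at least 2 of 18 samples had more than 10 counts (both regions, without SH replicate 3), in 1 model of 4 groups with TMM scaling and the quasi-likelihood test of edgeR 4.0.16 in R 4.3.3, with Benjamini-Hochberg adjustment. The paper does not number the SH sample it excluded. Genes were called at an adjusted p under 0.05 where they rose or fell at least 1.2-fold. Standard errors were derived from the F statistic. The procedure was tested on simulated data.
The samples, gene lists and tests were chosen with earlier results of these data known. Genes named are the 12 largest rises and 12 largest falls among called genes with TPM over 1 in at least 3 dorsal samples and no overlap of groups, the 10 smallest p values, called members of lists, members of the 3 activity lists (some given by counts alone), and the 2 highest markers of each cell type. Others are said to be named after their values were seen, and some genes the rule names are not reported here.
Dorsal and ventral samples of a replicate number came from the same mice according to the study, so tests of the difference between regions were also run with the pool as a block. For EE against SH the numbers share no stated origin. Samples of 1 group had no identical counts. As alternatives, the fit was repeated with DESeq2 1.42.0, the likelihood ratio test, limma-voom (limma 3.58.1), RLE size factors, no filter on low counts, a TPM filter, robust dispersion, dorsal samples alone, all 20 samples, a replicate block, no fold change limit, unstranded counts, expected counts, and leaving out each dorsal sample. At a depth of 23522050 fragments or more, a level of 1 CPM rests on over 23 counts. Promoter sequences were from RefSeq. Bisulfite samples of the series were not analysed here.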

Additional observations from a re-analysis of the deposited data

Results flagged for a closer look

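Within SH or EE, 1 dorsal sample stood apart from the others of its group for these values, where chance would mark about 1 in 20 of the 226 groups checked. *Egr4* was at 8.47 CPM in dorsal EE replicate 1 (10.48 to 10.52 CPM in the other EE samples), *Nr4a1* at 21.2 CPM in dorsal EE replicate 4 (16.5 to 17.4 CPM), *Sik1* at 11.5 CPM in dorsal EE replicate 3 (12.5 to 12.9 CPM) and *Per3* at 31.8 CPM in dorsal EE replicate 4 (34.6 to 35.1 CPM). *Bdnf* was at 63.1 CPM in dorsal SH replicate 2 (72.1 to 73.7 CPM in the other SH samples). Among growth factor genes, *Acvr1c* was at 79.2 CPM in dorsal EE replicate 2 (100.3 to 104 CPM) and *Fst* at 7.33 CPM in dorsal SH replicate 5 (6.19 to 6.27 CPM). *Batf3* was at 2.27 CPM in dorsal EE replicate 5 (1.40 to 1.63 CPM), *Lrg1* at 0.745 CPM in dorsal SH replicate 5 (0.427 to 0.466 CPM), *Lpar6* at 6.10 CPM in dorsal EE replicate 3 (5.10 to 5.31 CPM) and *Slc44a5* at 74.9 CPM in dorsal EE replicate 2 (83.8 to 86.4 CPM). The summed choroid plexus markers were at 226 CPM in dorsal SH replicate 1 (29.5 to 54.9 CPM). The rise of *Igfbp6* differed between dorsal and ventral DG in a test of the difference, by 0.92 on the log2 scale (edgeR's quasi-likelihood test, adjusted p = 0.0462).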

How the results depend on the processing

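All 108 called genes kept their direction in every one of the 21 other fits that tested them. In 106 of them the EE and SH samples did not overlap, so the direction was nearly fixed in advance and is no separate support. The count of 108 calls (66 raised, 42 lowered) moved by over 1.5 times with the likelihood ratio test, to 181 (109 and 72), and with a replicate block, to 172 (107 and 65). Leaving out 1 dorsal sample gave 68 to 101 calls, 42 to 62 of them raised and 25 to 39 lowered. The 3 activity lists held 12 calls, and 7 to 12 when 1 dorsal sample was left out, with 7 without dorsal SH replicate 2. Other counts were within 1.5 times, from 83 with the TPM filter to 147 with no filter on low counts. Under the settings that kept all dorsal samples, the named called genes that were tested but no longer passed were 10 of 68 with RSEM expected counts. They were 6 with limma-voom, 5 with unstranded counts and 4 or fewer in each other setting. Genes that a setting did not test are not in these counts, which matters most for the TPM filter. With that filter 12201 genes were tested, and the immediate early list held 3 calls among 25 tested members. The difference between regions was found for 1 gene, for 2 genes with the pool as a block and for 1 gene with all 20 samples. For EE against SH, the deviations of dorsal SH and EE samples with the same number correlated at 0.0815 to 0.175 (4 pairs) and of other pairs at -0.14 to 0.0886 (16 pairs), and 7 of 8 samples correlated best with their own number, a hint from the data and not from the design. Pools per group and few counts in genes under 1 CPM limited the precision, and the causes of these shifts were not tested.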
